A study of Mus musculus with 536 samples.

Results

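The mitochondrial respiratory chain was examined here through the genes of its 5 protein complexes, followed in mouse blood across radiation doses, times and 2 agents. A gene was a member if its symbol began with Nduf and a, b, c, s or v (complex I), was Sdha, Sdhb, Sdhc or Sdhd (complex II), or began with Uqcr (complex III), with Cox and a digit from 4 to 8 (complex IV) or with Atp5 (complex V). Assembly factors with "af" and a digit in the symbol were left out, and each gene was read through its brightest probe set that carried a single symbol. This rule found 79 of the 12393 genes measured: 34 of complex I, 4 of complex II, 8 of complex III, 16 of complex IV and 17 of complex V. Of these members, 44 had more than 1 such probe set, and of their 71 other probe sets, 50 followed the one used with a Pearson r above 0.5 over 240 mice, while 12 had an r below 0. A further 8 probe sets that share a respiratory chain symbol with another symbol are not analysed here.

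The study measured RNA in the peripheral blood of C57BL/6 mice, female and male, 10 to 12 weeks old. Blood was taken after a single dose of gamma rays from a caesium source. Every sample came from a separate mouse, except 2 arrays taken as repeats of a mouse already measured. The main set held 240 mice without agent, in 48 groups of 5, at 8 doses (0, 100, 200, 300, 450 and 600 cGy, then 800 and 1050 cGy) and 6 times (6, 24, 48, 72, 120 and 168 hr), where the labels used here do not give the sex. A second set of 226 mice crossed sex (111 female, 115 male), agent (none, GCSF or LPS), dose (0, 200, 300 or 600 cGy) and time (6 or 24 hr) in 48 groups of 3 to 5. Smaller sets held 50 mice at 0, 150 or 600 cGy with no agent, GCSF or LPS, in 9 groups of 5 to 6, and 18 mice in 4 groups of 2 to 10, which include 150 cGy and 0 cGy at 168 hr. GCSF is the growth factor that drives neutrophil production, and LPS is the endotoxin of Gram-negative bacteria. When the agents were given relative to the labelled time is not given in the sources used here, so 6 hr and 24 hr in the agent groups are the labelled times and not times since the agent. Blood was drawn by a terminal cardiac puncture and globin transcripts were reduced before hybridisation.

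Complexes I and II pass electrons from NADH and succinate to ubiquinone, complex III passes them to cytochrome c, and complex IV passes them to oxygen. Complexes I, III and IV pump protons across the inner mitochondrial membrane, and complex V, the ATP synthase, uses that gradient to make ATP. Mature red cells have no mitochondria, while reticulocytes, lymphocytes, monocytes and platelets carry them to different degrees, so a blood level of these mRNAs mixes many cell types.

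Levels are log2 array values, so a difference of 1 is a doubling, and a gene was called where limma's adjusted p over all 12393 genes was under 0.05. A slope is the change in log2 value per 100 cGy over the 8 dose groups of 1 time. In the main set the 5 mice of a group are listed by the middle number of the sample title, which the labels do not explain and which takes 5 values, each holding 1 mouse of every group. Leaving out mouse 1 of every group leaves out the lowest of these numbers. In the other sets a mouse left out is counted in the order of the label numbers. Median array values lay between 5.61 and 5.93. Cdkn1a, a p53 target that serves as a check of the dose labels, stood above 0 cGy at 300 cGy by 1.83 at 6 hr, 2.87 at 24 hr, 2.91 at 48 hr, 2.87 at 72 hr, 1.68 at 120 hr and 0.75 at 168 hr. The albumin transcript Alb, made by liver, reached a value of 10 or more in only 1 of the 40 mice taken at 6 hr. At the later times 23, 26, 21, 21 and 24 of 40 mice did so, in order from 24 to 168 hr. In the main set 7 mice stood apart from their group in the mean of a B cell or an erythroid marker list, and 3 more did so in the treatment sets. In bulk blood, fewer cells of a type and less RNA per cell cannot be told apart.

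**Figure D1:**
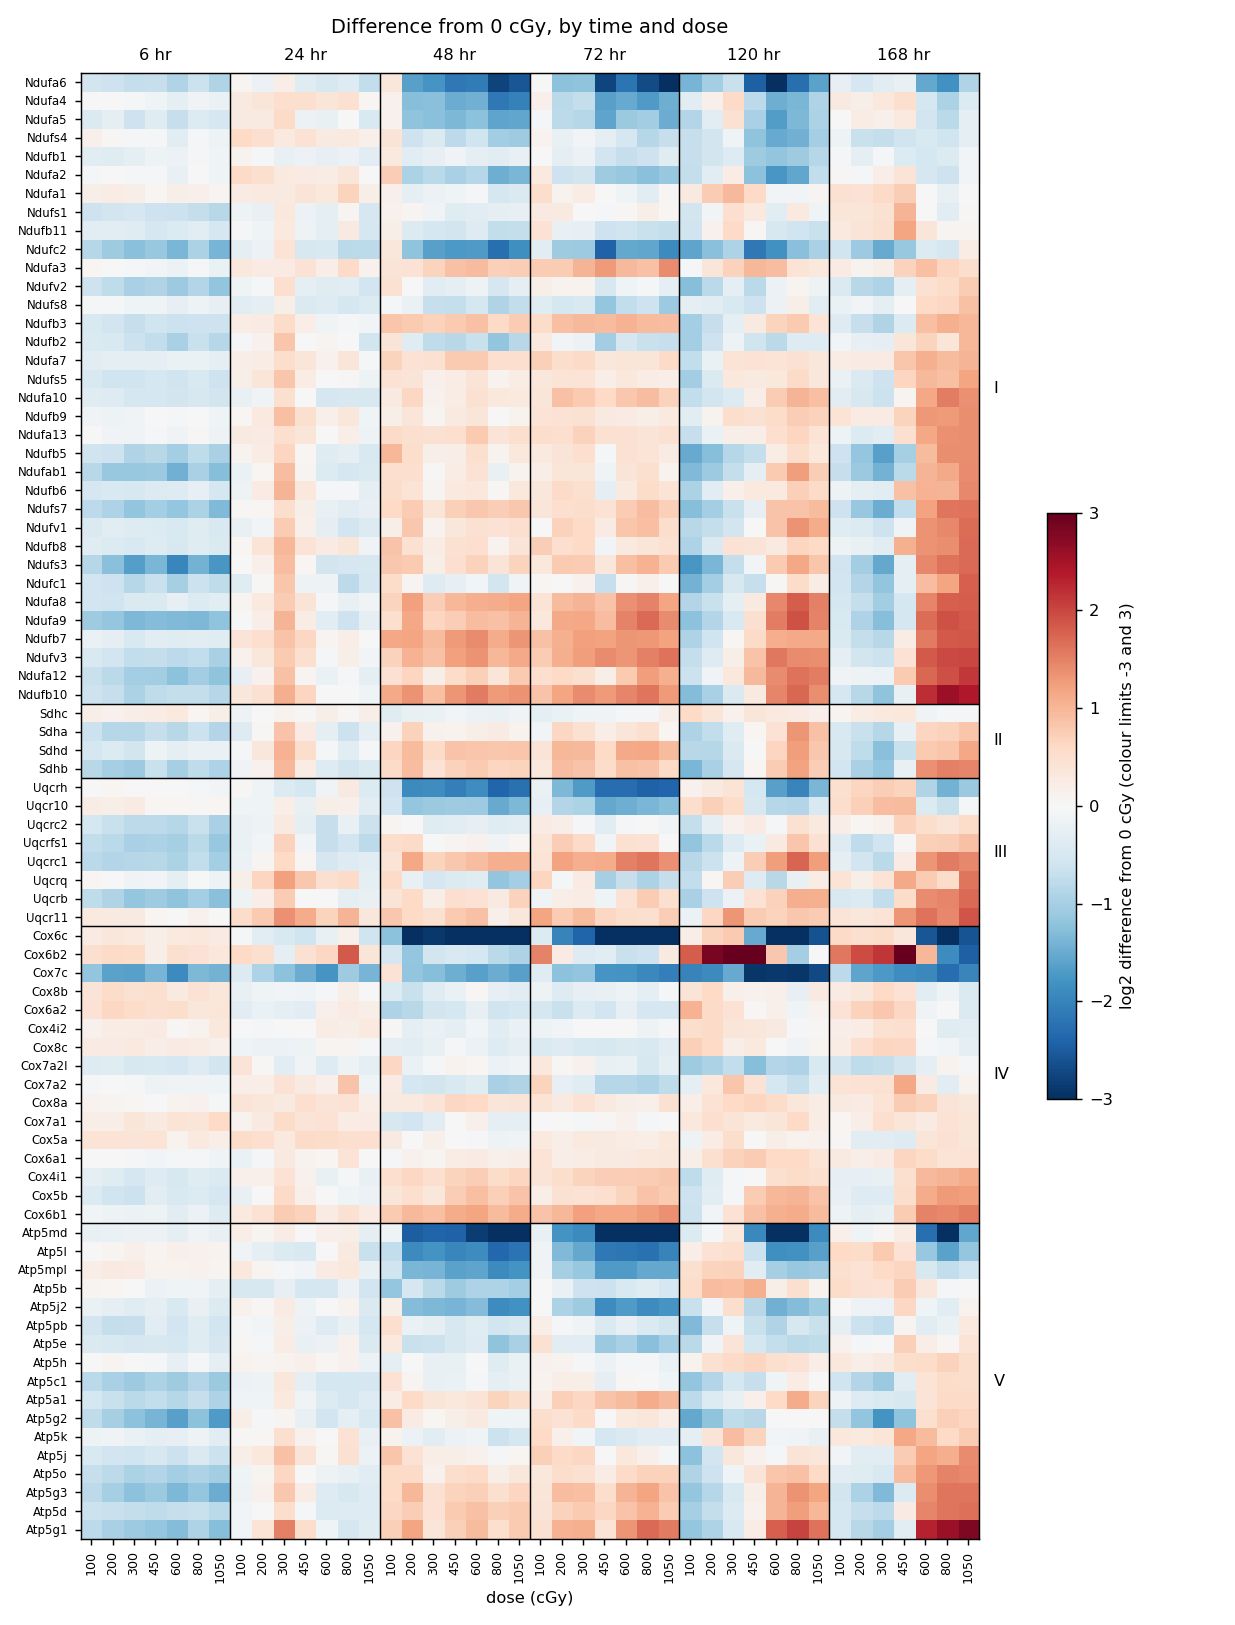
Difference in log2 value from 0 cGy at the same time for the 79 members (lines, ordered by complex) in each dose group (columns, 100 to 1050 cGy at 6, 24, 48, 72, 120 and 168 hr; means of 5 mice). Most members are below 0 cGy at 6 hr at every dose, at 48 and 72 hr both directions occur within each large complex, and at 168 hr the low doses and the high doses differ in colour for most of complex I.

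At 6 hr in the main set more members were lower than higher in irradiated blood. The median difference of complex IV at 300 cGy was 0.15, near that of all genes. At 300 cGy 39 of 79 members fell and 3 rose, where 22.5% of all genes fell and 25.4% rose, and the median difference was -0.48 against 0.15 over all genes. The falls took in 18 of 34 members of complex I, 3 of 4 of complex II, 4 of 8 of complex III, 4 of 16 of complex IV and 10 of 17 of complex V, and the 3 rises all lay in complex IV. Quantile normalisation moved the split to 8 up and 32 down. In the smaller treatment set at 6 hr, 150 cGy called 0 members (3.83% of genes) and 600 cGy called 1 (7.38%). In the second set without agent, 8 members rose and 13 fell by slope at 6 hr (7.55% and 12.4% of genes).

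Ndufs3, a core subunit of the quinone-binding arm of complex I, read 8.27, 8.22, 8.28, 7.99 and 7.69 in the 5 mice at 0 cGy and 6.54, 6.17, 6.75, 6.29 and 6.43 at 300 cGy. Every irradiated mouse lay below every control, a difference of -1.66 ± 0.31 (SE, limma adjusted p = 3.36e-06). Cox7c, a small nuclear-coded subunit of complex IV, fell by 1.63 ± 0.24 (limma adjusted p = 1.57e-08). Its probe set was dim, with a mean of 4.92 over all mice, below every array median and under the 30th percentile of genes, so the folds printed for Cox7c here and at other times are those of a probe set near background. With both of its probe sets averaged the 6 hr difference was -1.01. Ndufa9, an accessory subunit of the same arm as Ndufs3, fell by 1.35 and the membrane subunit Ndufc2 fell by 1.25. Of complex II, the flavoprotein Sdha fell by 0.86 and the iron-sulfur protein Sdhb fell by 1.08. The core proteins of complex III, Uqcrc1 and Uqcrc2, fell by 0.86 and 0.78, and the ATP synthase alpha subunit Atp5a1 fell by 0.80. Cox4i1, the common isoform of subunit 4 of complex IV, fell by 0.50. The 3 that rose were Cox6a2 and Cox8b, heart and skeletal muscle isoforms of complex IV subunits, by 0.55 and 0.45, and Cox5a, by 0.39.

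The fall at 6 hr was already present at the lowest dose, with median member differences of -0.39, -0.36, -0.48, -0.39, -0.45, -0.36 and -0.46 from 100 to 1050 cGy. By slope, 30 members fell and 1 rose at 6 hr, where 18.5% of genes fell and 16.2% rose. Atp5g2, 1 of the 3 genes for the c subunit of the ATP synthase rotor, read 9.62, 9.45, 9.69, 9.26 and 9.18 at 0 cGy and 8.18, 7.96, 8.87, 8.12 and 7.90 at 300 cGy, with no overlap. Its slope was -0.12 ± 0.02 per 100 cGy (limma adjusted p = 7.14e-11), beside -0.12 for Ndufs3, -0.10 for Atp5g3, another c subunit gene, and -0.09 for the complex I subunit Ndufa12. The muscle isoform Cox7a1, also read by a dim probe set (mean 4.58), was the member that rose, with a slope of 0.04. Without mouse 3 of every group 18 members were called. The 8 B cell markers also fell together at 300 cGy, their mean from 9.49 to 9.99 at 0 cGy to 6.53 to 6.95 at 300 cGy, and their part in the result was not tested.

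At 24 hr the direction at 300 cGy was the opposite one. Here 41 members rose and 2 fell, against 15.8% and 17.9% of all genes, with a median of 0.48 against -0.08 over all genes. The rises were spread over complex I (21 of 34), complex II (3 of 4), complex III (5 of 8), complex IV (6 of 16) and complex V (6 of 17). Without mouse 1 of every group 26 members were called, and without mouse 2 of every group 22.

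Uqcr11, a small subunit of complex III, read 9.02, 9.03, 8.64, 9.17 and 8.71 at 0 cGy and 10.89, 10.90, 9.78, 9.92 and 9.93 at 300 cGy at 24 hr. All irradiated mice were above all controls, and the difference was 1.37 ± 0.20 (SE, limma adjusted p = 3.31e-09). Sdhb read 8.95, 9.17, 9.36, 9.62 and 9.25 at 0 cGy and 10.91, 10.90, 9.49, 10.07 and 9.92 at 300 cGy. The lowest irradiated mouse fell within the controls for Sdhb, and its rise was 0.99 ± 0.25. Other rises were Atp5g1, another c subunit gene, by 1.502, Uqcrq, a ubiquinone-binding subunit of complex III, by 1.23, the membrane subunit Ndufb10 by 1.10 and the complex II anchor Sdhd by 1.04. Cox7c went the other way, from 6.07, 6.07, 6.37, 6.09 and 6.87 at 0 cGy to 4.84, 5.05, 4.54, 4.94 and 5.89 at 300 cGy, a fall of 1.24 with no overlap. Cox7a2l, placed in complex IV by its symbol, fell by 0.34.

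At 24 hr the member medians were 0.01, 0.09, 0.48, 0.07, -0.05, 0.02 and -0.27 from 100 to 1050 cGy, and over the whole dose range 37 members fell and 7 rose by slope, where 19.8% of genes fell and 18.9% rose. The steepest slopes were -0.11 for Cox7c and -0.09 for Uqcrfs1, the Rieske iron-sulfur protein of complex III. Without mouse 4 of every group 27 members had a called slope, and without mouse 5 only 6. Quantile normalisation gave 27 by slope and a fit of the groups at this time alone gave 26. Liver transcripts moved with the 300 cGy group: Alb was at 10 or more in 5 of its 5 mice, in 3 of 5 at 0 cGy and in 0 of 5 at 100 cGy. The mean of the 11 hepatocyte markers was 12.32 to 13.74 at 300 cGy and 4.95 to 11.38 at 0 cGy. With mice of Alb at 10 or more left out, the 300 cGy difference could not be computed and 28 members had a called slope.

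**Figure D2:**
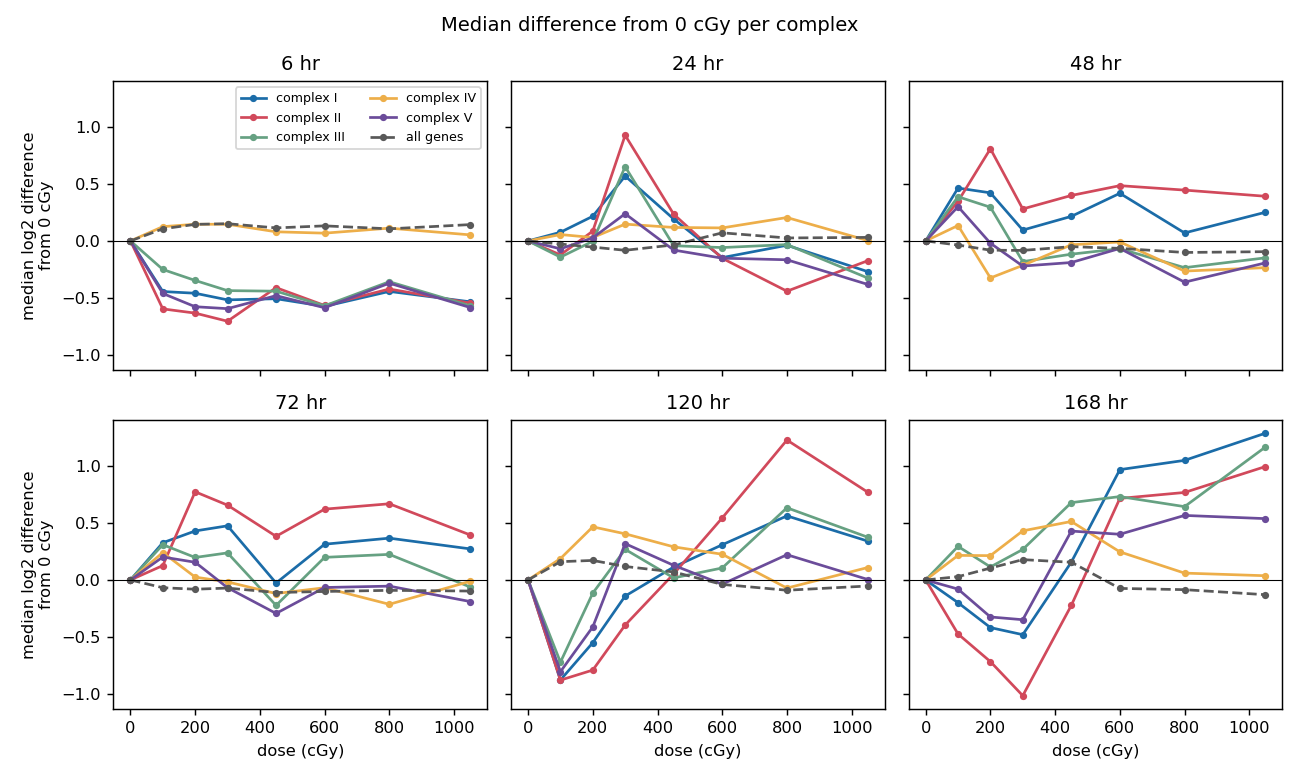
Median difference in log2 value from 0 cGy over the members of each complex, against dose (cGy), 1 panel per time; points are medians over genes of the differences of group means (5 mice a group). Complexes I, II, III and V are below 0 at every dose at 6 hr, and complex IV is above 0. At 168 hr the complex I median is -0.48 at 300 cGy and 1.29 at 1050 cGy.

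At 48 hr the share of members that rose was near that of all genes, and the median difference at 300 cGy was 0.01. Single members had large differences in both directions, with falls among some small subunits and rises among others of the same complexes. In all 15 members rose and 21 fell at 300 cGy, where 18.8% of genes rose and 18.8% fell, and 24 rose and 26 fell at 1050 cGy, where 23.5% rose and 26.8% fell. By slope 19 rose and 33 fell, against 24.0% and 23.3%. Quantile normalisation gave 5 up and 34 down at 300 cGy, 10 and 37 at 1050 cGy and 8 and 42 by slope.

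Cox6c, a small subunit of complex IV, read 12.47, 12.45, 12.27, 11.86 and 12.08 at 0 cGy, 11.24, 10.65, 10.80, 10.95 and 11.30 at 100 cGy and 7.65, 8.59, 7.86, 8.60 and 7.35 at 1050 cGy at 48 hr. The 3 dose groups did not overlap, and the value dropped by 4.22 ± 0.36 (SE, limma adjusted p = 8.92e-22) from 0 to 1050 cGy. At 300 cGy it read 12.10, 9.03, 8.46, 8.37 and 8.68, where the first mouse lay among the controls. That mouse also stood apart from its group in the erythroid list (11.08, others 7.75 to 8.07) and the B cell list (6.16, others 8.01 to 8.55). The Cox6c difference at 300 cGy was -2.90 with it and -3.59 without it and the other mice that stood apart.

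Uqcrh, the hinge protein of complex III, read 12.11, 12.08, 11.96, 11.72 and 11.89 at 0 cGy and 12.05, 9.64, 9.75, 9.59 and 9.47 at 300 cGy at 48 hr. Atp5l, subunit g of the ATP synthase, read 11.92, 11.98, 11.87, 11.44 and 11.85 at 0 cGy and 11.68, 9.67, 9.79, 9.38 and 9.61 at 300 cGy. For both genes 4 irradiated mice lay below all controls and the same mouse as for Cox6c did not. Uqcrh fell by 1.85 ± 0.22 (limma adjusted p = 2.19e-13) and Atp5l fell by 1.79 ± 0.21 (limma adjusted p = 6.42e-13), and without the mice that stood apart the differences were -2.34 and -2.20. Atp5md, another small ATP synthase subunit, fell by 2.40, Ndufa4, which works in complex IV although its symbol places it in complex I here, fell by 1.25, and the catalytic beta subunit Atp5b fell by 0.81. At 1050 cGy Atp5md fell by 3.36, the complex I subunit Ndufa6 fell by 2.58 and Uqcrh fell by 2.25. The steepest slopes per 100 cGy were -0.35 for Cox6c, -0.31 for Atp5md, -0.27 for Ndufa6 and -0.20 for Ndufc2.

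The members that rose at 48 hr came from the same complexes. Ndufb10, a membrane subunit of complex I, read 7.22, 7.00, 7.09, 7.53 and 6.78 at 0 cGy, 6.86, 8.09, 8.54, 8.30 and 8.37 at 300 cGy, and 8.55, 8.73, 8.55, 8.38 and 8.18 at 1050 cGy. Again 1 mouse at 300 cGy lay among the controls, and the 1050 cGy group lay above all of them. The difference of Ndufb10 was 0.91 ± 0.26 at 300 cGy and 1.35 ± 0.26 at 1050 cGy. Cox6b1, the ubiquitous isoform of subunit 6b of complex IV, read 11.33, 11.12, 11.45, 11.32 and 10.94 at 0 cGy and 11.86, 12.22, 12.28, 12.14 and 12.17 at 300 cGy, all above the controls, a rise of 0.91 ± 0.14. Ndufb7, a membrane subunit, rose by 0.94, Ndufv3, of the NADH-binding arm, by 0.88 and Uqcrc1 by 0.67. At 1050 cGy the rises were 1.33 for Ndufb7, 1.19 for the complex I subunit Ndufa8, 1.15 for Ndufv3 and 1.08 for Uqcrc1.

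**Figure D3:**
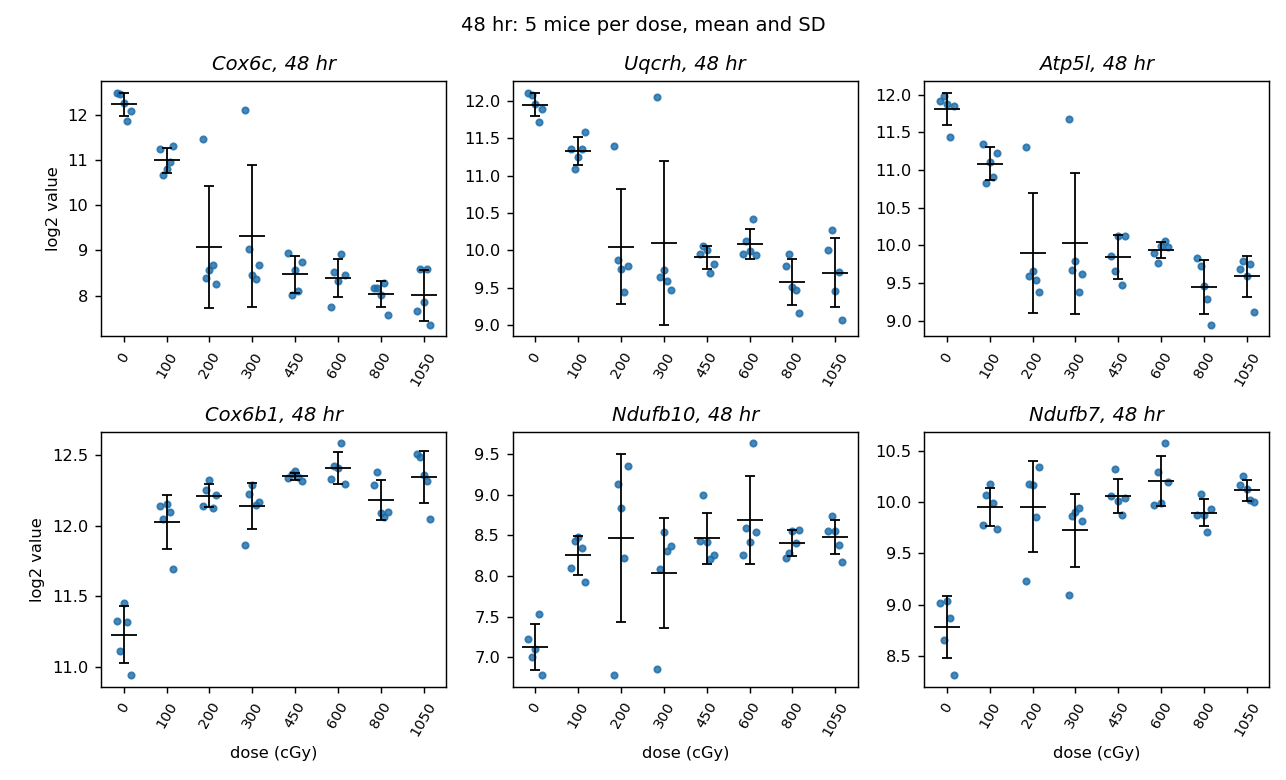
Log2 value of Cox6c, Uqcrh, Atp5l, Cox6b1, Ndufb10 and Ndufb7 in each mouse (points; bars are group means) against dose (cGy) at 48 hr, 5 mice a group. The first 3 genes drop with dose and the last 3 rise, and single mice at 200 and 300 cGy sit with the controls.

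Erythroid markers moved with these members. The mean of 10 erythroid and reticulocyte markers was 11.23 to 11.55 at 0 cGy and 7.39 to 7.96 at 1050 cGy at 48 hr. Over the 240 mice, which share doses and times, the log2 value of Atp5l went with that mean at r = 0.90, Cox6c and Uqcrh at 0.88, Atp5mpl at 0.85, Uqcr10 at 0.78 and Atp5md at 0.76. Ndufa8 had an r of -0.84, Ndufb10 and Ndufb7 of -0.81 and Ndufv3 of -0.80. In all 15 members had an r above 0.5 with the erythroid mean and 32 an r below -0.5, and its part in the result was not tested. With mice of Alb at 10 or more left out, 1 member rose and 11 fell at 300 cGy, 30 members were called at 1050 cGy and 33 by slope.

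At 72 hr single members again had large differences in both directions. At 300 cGy 30 members rose and 15 fell, where 20.7% of genes rose and 23.9% fell, and by slope 26 rose and 29 fell, where 26.3% rose and 27.1% fell. Quantile normalisation turned the balance at 300 cGy to 11 up and 28 down and gave 16 up and 40 down by slope. Cox6c read 12.13, 12.15, 11.78, 12.41 and 12.23 at 0 cGy and 10.98, 11.57, 9.18, 8.99 and 8.002 at 300 cGy, all below the controls, and fell by 2.40 ± 0.36 (limma adjusted p = 6.72e-09). Atp5md fell by 1.92, Uqcrh fell by 1.69 and Atp5l fell by 1.54, while Ndufb10 rose by 1.42, Ndufv3 by 1.26, Ndufb7 by 1.23, Cox6b1 by 1.22 and Uqcrc1 by 1.10. These 9 genes had the same direction at 48 hr and at 72 hr in separate mice. Most were named for having the largest called differences at these times, so the shared direction is not a separate check. All 9 also kept their direction under quantile normalisation and when arrays were centred on their median.

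The promoters of 4 members that moved in opposite directions or by the largest amounts are shown here, from 250 bases before to 50 bases after the gene start in RefSeq's annotation of GRCm38.p6. Each is on the minus strand, printed 5′ to 3′ as the gene reads. Uqcrh lies at chr4:116075021-116075320, Atp5l at chr9:44920693-44920992, Ndufb10 at chr17:24724374-24724673 and Cox6b2 at chr7:4753045-4753344. Capitals mark a match to the ETS motif CCGGAAG on either strand, which reads CTTCCGG on the printed strand here, or to the NRF1 motif core CGCATGCG, which reads the same on both strands.
Uqcrh: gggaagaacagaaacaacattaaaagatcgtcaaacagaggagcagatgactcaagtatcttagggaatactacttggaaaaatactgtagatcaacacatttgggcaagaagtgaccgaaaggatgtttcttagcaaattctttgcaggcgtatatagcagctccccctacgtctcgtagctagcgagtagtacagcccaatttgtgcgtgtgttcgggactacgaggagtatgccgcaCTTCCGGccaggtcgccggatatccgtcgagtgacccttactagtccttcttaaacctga
Atp5l: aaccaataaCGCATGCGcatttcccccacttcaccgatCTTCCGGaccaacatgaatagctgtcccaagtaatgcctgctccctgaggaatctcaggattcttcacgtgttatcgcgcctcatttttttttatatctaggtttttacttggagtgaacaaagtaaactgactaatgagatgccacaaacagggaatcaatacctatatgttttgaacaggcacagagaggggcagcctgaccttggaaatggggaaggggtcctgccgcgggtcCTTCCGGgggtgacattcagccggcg
Ndufb10: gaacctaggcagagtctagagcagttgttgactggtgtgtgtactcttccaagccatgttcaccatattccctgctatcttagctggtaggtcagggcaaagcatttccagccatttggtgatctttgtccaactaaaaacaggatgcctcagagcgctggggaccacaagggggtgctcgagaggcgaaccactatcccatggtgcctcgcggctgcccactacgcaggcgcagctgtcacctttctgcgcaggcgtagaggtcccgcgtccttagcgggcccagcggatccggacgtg
Cox6b2: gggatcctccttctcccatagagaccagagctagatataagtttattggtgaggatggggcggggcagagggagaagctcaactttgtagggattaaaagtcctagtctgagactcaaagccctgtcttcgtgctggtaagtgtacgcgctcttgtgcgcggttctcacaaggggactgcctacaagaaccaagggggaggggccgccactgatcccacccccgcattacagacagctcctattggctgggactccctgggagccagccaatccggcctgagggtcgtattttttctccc
Motifs of 3 factor families known to bind promoters of nuclear genes for mitochondrial proteins were searched on both strands of this window in the 65 members that RefSeq's table holds. The NRF1 core CGCATGCG was found in 8 of 65 members (12.3%) and in 3.5% of the 9883 array genes in the table, and Atp5l held it. The ETS motif CCGGAAG was found in 17 of 65 members (26.2%) and in 16.4% of array genes, with 1 match in Uqcrh and 2 in Atp5l. The YY1 motif AAGATGGCG was found in 6 of 65 (9.2%) and in 2.8%. None of the 3 motifs overlaps another in the windows printed here. In all 25 of 65 members (38.5%) and 21.2% of array genes held at least 1 of the 3, and the windows of Ndufb10 and Cox6b2 held none of these letters. The promoters of Uqcrq, Uqcrc2, Cox8c, Atp5mpl, Atp5a1, Ndufs1, Cox4i2, Uqcrb, Cox6c, Cox4i1, Ndufb9, Cox6a2, Ndufa2 and Sdhc are not printed or searched here.

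At 120 hr the lowest dose gave a broad fall. At 100 cGy 54 members fell and 10 rose, against 31.7% and 39.5% of all genes, and the median was -0.73 against 0.16 over all genes. All 8 B cell and 6 of 8 T cell markers fell as well, with medians of -2.07 and -1.44, and their part was not tested. Complex I accounted for 30 of the falls, complex V for 11, complexes III and IV for 5 each and complex II for 3. Ndufs3 read 9.05, 8.65, 9.29, 9.05 and 9.01 at 0 cGy and 7.30, 7.53, 6.46, 7.09 and 7.94 at 100 cGy, with no overlap, and fell by 1.75 ± 0.31 (limma adjusted p = 2.66e-07). Cox7c fell by 2.01, Ndufc2 fell by 1.57 and Atp5g2 fell by 1.53. Quantile normalisation gave 13 up and 27 down. The rises were led by Cox6b2, the testis isoform of subunit 6b, by 1.83 and Cox6a2 by 1.03. Cox8c, the testis isoform of subunit 8, rose by 0.71 and the complex II anchor Sdhc by 0.59. The other probe set of Sdhc, with a mean of 7.01, had an r of -0.45 with the one used over 240 mice, so the Sdhc rise is that of a single probe set.

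With rising dose the 120 hr medians crossed 0, at -0.73, -0.35, 0.15, 0.13, 0.27, 0.45 and 0.23 from 100 to 1050 cGy. At 300 cGy 21 members rose and 12 fell, where 20.2% of genes rose and 23.2% fell, and by slope 42 rose and 24 fell, where 35.4% rose and 47.0% fell. Quantile normalisation gave 38 up and 35 down by slope. Without mouse 4 of every group 21 members were called at 300 cGy, and a fit of the compared groups alone called 57. The shares of all genes called under these alternatives are not given here. The slope over 0 to 300 cGy called 37 members. Besides Cox6b2, the rises at 300 cGy were led by Uqcr11 with 1.32, the complex I subunit Ndufa1 with 0.98 and Atp5k, subunit e of the ATP synthase, with 0.92, and the falls by Cox7c (-1.52), Ndufc2 (-0.92), Ndufb5 (-0.86) and Atp5g2 (-0.77).

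Cox6b2 rose and fell with dose. At 120 hr it read 8.77, 9.66, 8.79, 8.99 and 8.75 at 0 cGy, 10.46, 10.63, 11.57, 11.11 and 10.32 at 100 cGy, 12.32, 11.98, 12.10, 12.07 and 11.99 at 300 cGy, and 7.38, 7.80, 8.13, 8.44 and 8.13 at 800 cGy. The 100 and 300 cGy groups lay above all controls, 300 above 100, and the 800 cGy group below all controls. The Cox6b2 means from 0 to 1050 cGy were 8.99, 10.82, 11.85, 12.09, 12.26, 9.81, 7.97 and 8.99, with SDs of 0.14 to 0.98 (n = 5 each), so the peak was at 450 cGy, which did not differ from 300 cGy beyond the spread. At 300 cGy the rise was 3.10 ± 0.32 (SE, limma adjusted p = 1.83e-15).

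At the next time Cox6b2 had the same shape. At 168 hr it read 9.66, 8.97, 9.07, 9.39 and 9.45 at 0 cGy, 11.25, 12.02, 11.22, 11.74 and 11.06 at 300 cGy, 12.19, 12.91, 12.58, 12.54 and 12.31 at 450 cGy and 6.74, 7.63, 7.23, 5.36 and 7.38 at 1050 cGy. The 450 cGy mice were above all 300 cGy mice, which were above all controls, and the 1050 cGy mice were below them. Doses of 200 and 300 cGy raised Cox6b2 by 1.95 and 2.15 over 0 cGy, while 1050 cGy gave a difference of -2.44. The erythroid list also rose and then fell with dose, but differed from Cox6b2 in its peak and at 600 cGy. At 120 hr its mean was 10.70 to 11.34 at 0 cGy, 11.79 to 11.98 at 300 cGy and 11.33 to 11.90 at 450 cGy. It was 7.89 to 9.85 at 600 cGy and 6.06 to 6.69 at 800 cGy. At 600 cGy the list lay below its controls, while the mean of Cox6b2 was above its own. At 168 hr the erythroid list mean was 11.17 to 11.40 at 0 cGy, 12.18 to 12.32 at 300 cGy and 12.01 to 12.22 at 450 cGy. Unlike Cox6b2, the list was not higher at 450 cGy than at 300 cGy. Over the 240 mice Cox6b2 had an r of 0.74 with that list, and the list's part in the Cox6b2 pattern was not tested.

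**Figure D4:**
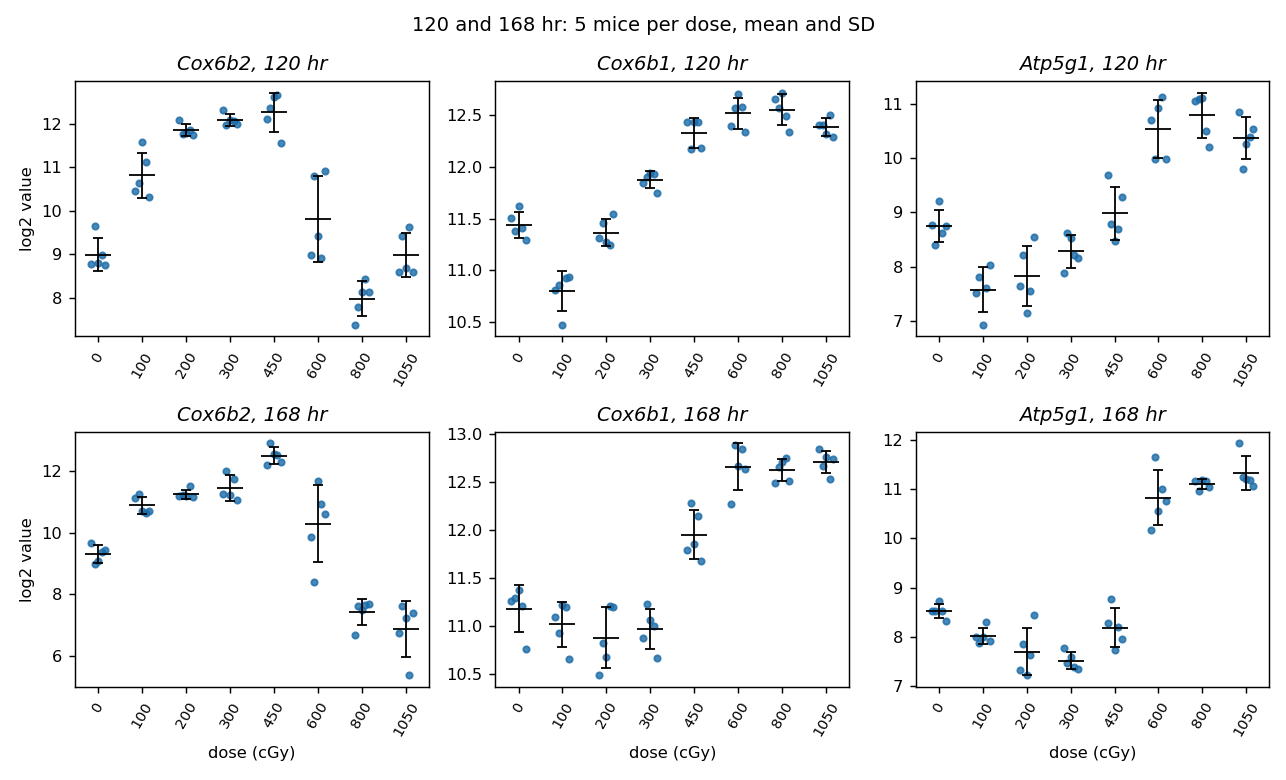
Log2 value of Cox6b2, Cox6b1 and Atp5g1 in each mouse (points; bars are group means) against dose (cGy) at 120 and 168 hr, 5 mice a group. Cox6b2 peaks at 450 cGy at both times, and Atp5g1 at 168 hr is lowest at 300 cGy and highest at 1050 cGy.

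At 168 hr more members fell than rose at 200 and 300 cGy, and more rose than fell at 1050 cGy. At 200 cGy 31 members fell and 11 rose, where 29.0% of genes fell and 29.8% rose, and at 300 cGy 36 fell and 20 rose, where 32.0% fell and 40.7% rose. At 1050 cGy 50 rose and 10 fell, against 26.7% and 33.3%. The member medians from 100 to 1050 cGy were -0.15, -0.30, -0.31, 0.39, 0.66, 0.60 and 0.75, and by slope 54 rose and 21 fell, against 35.5% and 46.6%. Quantile normalisation gave 20 up and 14 down at 200 cGy and 25 up and 20 down at 300 cGy, so the balance at low dose turned with the scaling.

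Complex I had 18 falls and 3 rises at 300 cGy and 1 fall and 24 rises at 1050 cGy at 168 hr. Ndufs3 read 8.62, 8.81, 8.85, 8.70 and 8.35 at 0 cGy, 7.42, 7.26, 7.38, 6.32 and 7.29 at 300 cGy and 10.85, 10.35, 10.16, 10.26 and 10.25 at 1050 cGy. The 3 groups did not overlap, and at 300 cGy the difference was -1.53 ± 0.31. Of complex V, Atp5g1 read 8.52, 8.53, 8.72, 8.52 and 8.33 at 0 cGy, 7.77, 7.46, 7.60, 7.38 and 7.36 at 300 cGy and 11.93, 11.24, 11.21, 11.19 and 11.06 at 1050 cGy. Its groups did not overlap either, and the difference at 1050 cGy was 2.80 ± 0.33 (SE, limma adjusted p = 7.68e-14).

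Further rises at 1050 cGy and 168 hr were 2.40 for Ndufb10, 2.12 for Ndufa12, 2.01 for Ndufv3, 1.67 for Ndufv1, the flavoprotein that takes electrons from NADH, 1.47 for Sdhb, 1.45 for Uqcrc1 and 1.12 for Cox4i1. Cox6c remained low, at 12.16, 11.76, 11.93, 11.85 and 11.95 at 0 cGy and 9.13, 9.69, 8.36, 10.66 and 8.83 at 1050 cGy, a fall of 2.59 with no overlap, and Cox7c fell by 1.97 and Atp5md fell by 1.55. In complex IV 9 members rose and 4 fell at 300 cGy, with Cox6a2 at 0.81. Its falls include Cox7c, which fell by 1.73. In the other complexes Uqcr10, a small subunit of complex III, rose by 0.92 and Atp5l by 0.79, while Atp5g2 fell by 1.80 and Ndufb5 fell by 1.62. At 200 cGy Cox7c fell by 1.59, Atp5g2 fell by 1.18 and Ndufb5 fell by 1.16.

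Liver and muscle lists moved with these results at 120 and 168 hr. Alb was at 10 or more in all 20 mice from 450 to 1050 cGy at 120 hr and all 20 at 168 hr, and in 0 of 5 at 0 cGy at 120 hr. The hepatocyte mean at 168 hr was 4.89 to 5.79 at 0 cGy and 12.52 to 14.20 at 1050 cGy. Over the 240 mice the hepatocyte mean had an r of 0.80 with Atp5g1, 0.72 with Ndufs3 and 0.71 with Ndufb10. With the same genes in that order the striated muscle mean had an r of -0.87, -0.91 and -0.84, and the erythroid mean of -0.76, -0.68 and -0.81. With mice of Alb at 10 or more left out, slopes at these times could be computed only over 0 to 300 cGy, with 33 up and 11 down at 120 hr and 19 up and 36 down at 168 hr. The 300 cGy contrast could be computed at both times and had 29 up and 19 down at 120 hr and 22 up and 36 down at 168 hr. Of the 11 markers shared by striated muscle, 10 rose at 300 cGy at 168 hr with a median of 0.64. The part of these lists in the results was not tested.

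The 7-day set held a low dose at 168 hr in other mice. At 150 cGy and 168 hr 42 members fell and 10 rose against 0 cGy, where 33.3% of genes fell and 33.8% rose, with a median of -0.54. Quantile normalisation gave 16 up and 26 down. Of the rises 7 were in complex IV, and complex I had 24 falls and 0 rises. Calls shared in direction with 200 cGy at 168 hr in the main set numbered 34, and no mouse was common to both. They were 65.4% of the 52 calls here and 81.0% of the 42 there. Of all genes 29.0% fell and 29.8% rose at that dose and time in the main set. With 100 cGy at 168 hr, where 7 members rose and 6 fell against 5.0% and 9.96% of genes, 10 calls were shared in direction. They were 19.2% of the 52 and 76.9% of the 13. The sharing over all genes was not counted for either dose.

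Cox6b2 read 8.84, 9.32 and 8.83 in the 3 mice at 0 cGy and 10.85 to 11.65 with a mean of 11.27 ± 0.29 (SD, n = 10) at 150 cGy in the 7-day set. The groups did not overlap, and the rise was 2.28 ± 0.22 (SE, limma adjusted p = 1.3e-06). Ndufs3 read 9.40, 9.31 and 9.46 at 0 cGy and 7.20 to 8.43 at 150 cGy, and Cox7c 7.89, 7.35 and 7.02 against 4.30 to 5.99. Neither gene's groups overlapped: Ndufs3 fell by 1.53 and Cox7c fell by 2.23. Atp5g2 fell by 1.55 and Ndufb5 fell by 1.46 as well. Cox6a2 rose by 0.93, Cox8b by 0.73 and Cox4i2, the lung isoform of subunit 4, by 0.72. Beside these the erythroid mean was 10.61 to 11.10 at 0 cGy and 11.67 to 12.35 at 150 cGy, the B cell mean 10.36 to 10.76 and 8.002 to 9.03, and the hepatocyte mean 4.53 to 5.27 and 5.31 to 9.08, and their part was not tested.

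The dose slope differed between the 6 times for 76 of 79 members by a moderated F test, where 92.3% of all genes did. Within the mice of each of the 5 title numbers of the main set the median member slope lay between -0.05 and -0.01 at 6 hr, between 0.03 and 0.08 at 120 hr and between 0.09 and 0.12 at 168 hr. At 24, 48 and 72 hr it ran from -0.09 to -0.01, from -0.03 to 0.01 and from -0.04 to 0.02.

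Several subunits of complex IV exist as a tissue isoform, of muscle for Cox6a2, Cox7a1 and Cox8b and of lung for Cox4i2, and as a ubiquitous isoform coded by a separate gene. Over the 48 group means of the main set Cox6a2 lay between 5.97 and 7.49, Cox8b between 5.09 and 6.28, Cox4i2 between 5.75 and 6.80 and Cox7a1 between 4.16 and 4.94. The group means of the ubiquitous partner genes ran from 13.24 to 14.20 for Cox6a1, 10.62 to 11.44 for Cox8a, 10.31 to 12.29 for Cox4i1 and 10.67 to 12.65 for Cox7a2. Myh6, a heart muscle myosin and a marker of tissue carried along by a cardiac puncture, lay between 2.83 and 4.66. The lowest value over all arrays and probe sets was 2.17. The Cox8b and Cox7a1 probe sets had means of 5.65 and 4.58 over all mice, at percentiles 38.2 and 17.7 of genes. Over the 240 mice the mean of the cardiac muscle list had an r of 0.68 with Cox6a2, 0.62 with Cox8b, 0.60 with Cox7a1 and 0.32 with Cox4i2. For the mean of the striated muscle list the r was 0.78, 0.74, 0.26 and 0.75 in the same order. Such values were not particular to these isoforms. With the same list the testis isoform Cox8c had an r of 0.83, Sdhc of 0.64 and the complex I subunit Ndufs3 of -0.91. The part of heart or muscle tissue in these values was not tested.

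At the labelled 6 hr, members were lower in mice with LPS and no radiation than in mice without agent. In the second set, over both sexes at 0 cGy, 40 members fell and 1 rose, where 20.5% of genes fell and 14.8% rose. The falls covered 21 of 34 members of complex I, 3 of 4 of complex II, 4 of 8 of complex III, 4 of 16 of complex IV and 8 of 17 of complex V. Leaving out mouse 1, 2 or 4 of every group gave 16, 26 or 23 called members. Lymphocyte markers moved with this result: 7 of 8 B cell and 6 of 8 T cell markers fell, with medians of -1.89 and -1.35. Of 8 mature neutrophil markers 5 rose, and the part of these lists was not tested.

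Ndufs7, an iron-sulfur subunit of complex I next to the quinone site, read 9.30, 8.91, 9.19, 8.97 and 8.79 in females and 8.90, 9.03, 9.43, 9.15 and 8.34 in males without agent. With LPS it read 7.28, 7.997 and 8.05 in females and 7.43, 6.44, 8.43, 6.97 and 7.89 in males. Only 1 male with LPS reached the lowest male without, and the difference was -1.40 ± 0.25 (SE, limma adjusted p = 1.51e-06). Cox7a2l lay at 10.04 to 10.44 in females and 9.90 to 10.72 in males without agent, and read 8.67, 8.98 and 9.44 in females and 9.54 to 9.93 in males with LPS. The females did not overlap and the males did, and Cox7a2l fell by 0.95 ± 0.14 (limma adjusted p = 4.55e-09). Ndufa6 fell by 1.11, Ndufb5 fell by 1.03, Sdha fell by 0.89 and Sdhb fell by 0.61, and Cox7a1 rose by 0.37.

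The smaller treatment set tested the same contrast at 6 hr in other mice, with 29 members lower and 3 higher, where 26.2% of genes were called in either direction. Centring each array on its median gave 7 up and 24 down. There 2 of 8 B cell and 4 of 8 T cell markers fell and 5 of 8 neutrophil markers rose. Of the calls 25 were shared in direction with the second set, 61.0% of its 41 and 78.1% of the 32 here. The sharing over all genes was not counted. Leaving out mouse 1 or 2 of every group gave 20 or 21 called members. Ndufs7 lay at 9.22 to 9.60 in 6 mice without agent and 8.45 to 8.999 with LPS, and Cox7a2l at 10.25 to 11.08 and 9.68 to 10.05. Both pairs of groups were apart, and Cox7a2l fell by 0.83. Ndufb5 fell by 0.93, Ndufb10 fell by 0.91, Atp5c1, the gamma subunit that turns inside the ATP synthase, fell by 0.90, Atp5g2 fell by 0.85 and Sdha fell by 0.70. The rises were Atp5b by 0.50, Cox8c by 0.29 and Atp5h, subunit d, by 0.25.

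**Figure D5:**
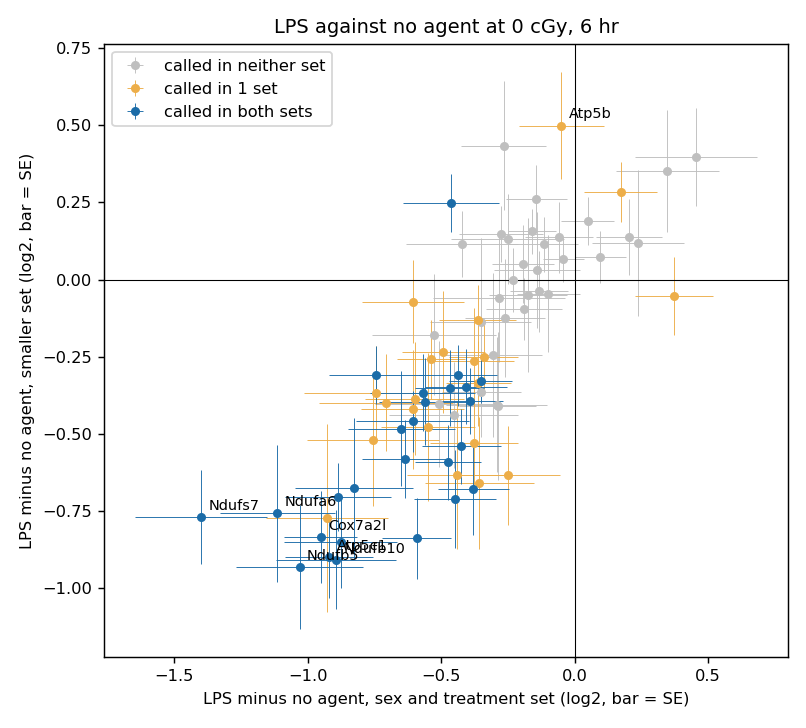
Difference in log2 value between LPS and no agent at 0 cGy and 6 hr for each of the 79 members. The x axis is the second set (mean over both sexes) and the y axis the smaller treatment set. Colour shows whether a member was called in both sets, in a single set or in neither, and bars are SE. Most points lie in the lower left part, and 65 of 79 members have the same sign in both sets. The share over all genes was not counted.

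At the labelled 24 hr, LPS without radiation had 3 members higher and 6 lower, where 9.2% of genes rose and 12.7% fell. Quantile normalisation called 18 members and a fit of the compared groups alone called 26. Cox7c fell by 0.99, Cox7a2l fell by 0.85, Cox6b2 fell by 0.69 and Sdha fell by 0.58, while Sdhd rose by 0.52, the complex I subunit Ndufb1 by 0.45 and Cox5b, a zinc-binding subunit of complex IV, by 0.39. Without mouse 5 of every group 5 members were called. GCSF without radiation gave 0 called members by limma at 6 hr, where 0.0% of genes were called, and 0 at 24 hr, where 0.549% were. At an unadjusted p under 0.05 the GCSF counts were 1 and 28, and a fit of the compared groups alone called 1 higher and 46 lower at 24 hr. The share of all genes called in that fit is not given here. In the smaller treatment set GCSF also gave 0 by limma, against 0.549% of genes, with 15 at an unadjusted p under 0.05.

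Dose slopes over 0 to 600 cGy were also fitted for each agent in the second set. At 6 hr 8 members rose and 13 fell without agent (7.55% and 12.4% of genes), 7 and 37 with GCSF (28.7% and 23.9%), and 10 and 19 with LPS (16.4% and 15.8%). Without agent 12 calls were shared in direction with the 6 hr slopes of the main set, or 38.7% of the 31 there and 57.1% of the 21 here. How many calls all genes shared was not counted. Quantile normalisation turned the LPS split to 21 up and 12 down, and leaving out mouse 1, 3 or 5 of every group gave 19, 10 or 16 members with LPS. Without agent, 6 members were called when mouse 4 was left out. Ndufs3 had slopes of -0.13 without agent, -0.24 with GCSF and -0.17 with LPS, Ndufa9 had -0.16 and -0.22 without agent and with GCSF, and Cox5a had 0.09 and 0.11 without agent and with LPS. Slopes differed between agent and no agent at 6 hr for 0 members with GCSF (0.0161% of genes) and 0 with LPS (6.45%) by limma, with 7 and 3 at an unadjusted p under 0.05.

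At 24 hr 11 members rose and 32 fell by slope without agent (18.3% and 22.9% of genes), 6 and 23 with GCSF (13.2% and 17.4%) and 0 and 25 with LPS (3.25% and 9.8%). Leaving out mouse 3, 4 or 5 of every group gave 15, 6 or 12 members with LPS, and a fit of its groups alone gave 15. Without agent Cox7c had a slope of -0.27 ± 0.04 (limma adjusted p = 2.75e-11), Ndufc2 of -0.19 and Atp5c1 of -0.15, and Uqcr11 and Cox5a of 0.13 each. With LPS, Ndufab1, the acyl carrier protein of complex I, had -0.17 and Atp5g2 -0.16. The slope differed between LPS and no agent for 10 members, 2 higher and 8 lower with LPS, where 16.5% of genes differed, and quantile normalisation gave 10 and 8. The differences were 0.18 for Cox7c and 0.08 for Ndufs8 on the higher side, and on the lower side -0.15 for Uqcr11, -0.14 for Ndufs4, -0.13 for Ndufa4 and -0.12 for Cox5a among others. GCSF and no agent differed in slope for 0 members by limma (0.00807% of genes), with 3 at an unadjusted p under 0.05.

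Females and males without radiation or agent differed in 0 members by limma, where 0.815% of genes did, with 11 at an unadjusted p under 0.05. A fit of the compared groups alone called 17 members for sex, 9 higher and 8 lower in females. For that fit, too, the share of all genes called is not given here. In the smaller treatment set 150 cGy gave 0 members (3.83% of genes), with 11 at an unadjusted p under 0.05, and 600 cGy gave 1 (7.38% of genes), Atp5e, the epsilon subunit of the ATP synthase, at -0.34. Without the 1 control mouse that stood apart in its B cell mean (6.85, others 9.58 to 10.23), 4 members fell at 150 cGy and 3 were called at 600 cGy.

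Genes that build or feed the chain were counted from separate lists. At 300 cGy and 6 hr, 14 of 29 assembly factors of the chain fell and 1 rose, as did 13 and 0 of 16 tricarboxylic acid cycle genes, 48 and 1 of 74 mitochondrial ribosomal protein genes, and 9 and 0 of 15 regulators of mitochondrial biogenesis. Glycolysis genes had 3 rises and 3 falls among 17. Of all genes 22.5% fell and 25.4% rose in this comparison, so the glycolysis counts do not stand above the background. Tfam, the packaging and transcription factor of mitochondrial DNA, fell by 2.05 ± 0.27 (limma adjusted p = 2.8e-10), Gabpa, an ETS factor, fell by 1.27, the fumarase gene Fh1 fell by 1.98, Idh3a fell by 1.37 and Cyc1, the cytochrome of complex III, fell by 1.30.

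At 48 hr and 300 cGy, where 18.8% of all genes rose and 18.8% fell, 11 of 17 glycolysis genes rose and 1 fell, led by Hk1 with 2.31 and Pkm with 2.28. Assembly factors were near that share with 6 rises and 7 falls among 29, and included Uqcc1 at 1.42, Pet100 at -1.49 and Cox16 at -1.47, and Cycs, cytochrome c itself, fell by 1.24. At 168 hr and 300 cGy, where 32.0% of all genes fell and 40.7% rose, 18 of 29 assembly factors fell and 4 rose, 57 of 74 mitochondrial ribosomal protein genes fell and 1 rose, and 10 of 17 glycolysis genes fell and 1 rose. Tfam fell by 2.32, Surf1, an assembly factor of complex IV, fell by 1.34, Tmem70, an assembly factor of complex V, fell by 1.46, Ldha fell by 1.40 and the glucose transporter gene Slc2a1 fell by 1.94. With LPS at 6 hr 14 of 29 assembly factors fell and 0 rose, where 20.5% of genes fell and 14.8% rose, with Surf1 at -1.48, and Fh1 was at -1.51 and Tfam at -1.14. In the 7-day set at 150 cGy Tfam fell by 1.90, the malate dehydrogenase gene Mdh2 fell by 1.87 and Dld fell by 1.81.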

How the data were processed

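The authors deposited 1 table of log2 values for 536 Affymetrix Mouse 430A 2.0 arrays, made with RMA in the affy package per the submitters' processing notes. Background correction and quantile normalisation belong to that method. Whether the study's batches were normalised jointly is not given in the sources used here, so comparisons were made only within a set of mice. The middle number of each sample title, whose meaning the labels do not give, was treated as a possible technical group. Of 22690 probe sets, 64 controls, 1555 without a symbol and 691 with several were left out, which left 20380 and 12393 genes. Arrays of the same mouse were averaged, for 534 mice.

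Group means were fitted per set with limma 3.58.1 in R 4.3.3 (lmFit and eBayes, two-sided), with Benjamini-Hochberg adjustment over all genes. The fit was tested on simulated data with the groups of the main set and slopes planted at 6 hr. Of slopes of 0.2 in either direction 97 of 100 were recovered, and of 0.4 99 of 100, with 6 false calls among 12393 genes. The noise was drawn separately for each gene, without shifts shared by the genes of a mouse. Member slopes at 6 hr were smaller, from -0.121 to 0.044, so the recovery of slopes of that size was not tested. Tables and figures used Python 3.11.15, pandas 2.3.3 and matplotlib 3.10.9. Array values hold no read depth, and the number of mice limits their precision.

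The members and lists were chosen with earlier results of these data known. Genes named for each comparison were up to 4 members called in each direction with the largest differences. A fixed set of isoforms and of catalytic or core subunits was also named. Further named genes were up to 2 each way per list, and Alb, Cdkn1a and cell markers where they move with a result. Alternatives were quantile normalisation, centring, a filter on dim genes, averaging all probe sets of a gene, the title number or mouse number as a block, fits on the groups compared alone, each mouse left out, and mice with high Alb left out. Mice that stand apart were left out as an alternative chosen after seeing the data, and contrasts of 100, 200 or 1050 cGy were added in the same way. Mouse numbers did not pair samples: the mean residual correlation of mice with the same number was between -0.13 and 0.06 over the 4 sets.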

Additional observations from a re-analysis of the deposited data

Results flagged for a closer look

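In 7 of 103 groups 1 mouse lay far from the others in its mean log2 value over the 79 members, where chance gives about 1 in 20. In the main set this held for a mouse at 600 cGy and 6 hr (8.69, others 8.78 to 8.82), at 800 cGy and 24 hr (8.96, others 9.68 to 9.81) and at 0 cGy and 120 hr (9.87, others 9.64 to 9.67). The mouse at 800 cGy and 24 hr also stood apart in the B cell list (6.22, others 8.46 to 9.13). In the second set it held for a female with GCSF at 200 cGy and 6 hr (9.19, others 9.46 to 9.55), a female with LPS at 300 cGy and 6 hr (8.55, others 9.02 to 9.14), a female without agent at 200 cGy and 24 hr (9.90, others 9.64 to 9.66) and a male with LPS at 600 cGy and 24 hr (9.71, others 9.38 to 9.46). The dose slope differed between times for 76 members by limma's moderated F test, near the 92.3% of all genes, and between LPS and no agent at 24 hr for 10 members, a smaller share than the 16.5% of all genes.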

How the results depend on the processing

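Of 2125 values of named genes under an alternative, 2047 kept their direction and side of the threshold, 77 were no longer called and 1 reversed: the Uqcrfs1 slope at 24 hr was 0.22 over 0 to 300 cGy. The middle title number as a block moved 0 of 32 counts of called members by over 1.5 times, and leaving out dim genes 0 of 37. Mouse number as a replicate block gave 1 member for GCSF at 24 hr and, in the smaller treatment set, 1 at 150 cGy and 3 at 600 cGy, and changed no other count by that much. Quantile normalisation gave 27 members by slope at 24 hr, 40 for 100 cGy at 120 hr, 18 for LPS and 18 for its slope difference at 24 hr, 1 for the LPS slope difference at 6 hr, 1 for GCSF at 24 hr and 4 each at 150 and 600 cGy. Fits of the compared groups alone gave 26 by slope at 24 hr, 57 for 300 cGy at 120 hr, 15 by slope with LPS at 24 hr, 47 for GCSF and 26 for LPS at 24 hr, 17 for sex and 0 at 600 cGy. The slope over 0 to 300 cGy at 120 hr gave 37. Without mice of Alb at 10 or more, counts were 28 by slope at 24 hr, 33 by slope at 48 hr and at 48 hr 12 for 300 cGy and 30 for 1050 cGy, while the 300 cGy contrast at 24 hr and the 1050 cGy contrast at 168 hr could not be computed. Averaging all probe sets of a gene gave 1 for the LPS slope difference at 6 hr, 1 for GCSF at 24 hr, 1 for sex and 2 at 600 cGy, and centring gave 0 at 600 cGy. Leaving out mice that stand apart, chosen after seeing the data, gave 4 at 150 cGy and 3 at 600 cGy. The cause of these changes was not tested. Counts under an alternative, here and above, are printed without the share of all genes called under it.

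With each mouse of a group left out in turn, slope counts ran from 18 to 39 at 6 hr, 6 to 46 at 24 hr, 47 to 49 at 48 hr, 51 to 54 at 72 hr, 65 to 67 at 120 hr and 71 to 73 at 168 hr, and the test between times from 75 to 77. At 300 cGy they ran from 32 to 42, 22 to 47, 27 to 45, 31 to 46, 21 to 31 and 45 to 54 in the same order of times. They were 43 to 50 for 1050 cGy at 48 hr, 55 to 65 for 100 cGy at 120 hr, and 31 to 52 for 200 cGy and 56 to 61 for 1050 cGy at 168 hr. By agent, slopes at 6 hr gave 6 to 20 without agent, 34 to 44 with GCSF and 10 to 29 with LPS, and at 24 hr 34 to 43, 20 to 28 and 6 to 32. Slope differences gave 0 to 0 with GCSF at both times, 0 to 1 with LPS at 6 hr and 8 to 11 at 24 hr. LPS itself gave 16 to 50 at 6 hr and 5 to 7 at 24 hr. Sex gave 0 to 0. The smaller treatment set gave 0 to 7 at 150 cGy, with 7 without mouse 6, 0 to 3 at 600 cGy, with 3 without mouse 6, 0 to 1 with GCSF and 20 to 37 with LPS. The 7-day set gave 44 to 54.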
